A study of Mus musculus with 21 samples.

Results

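The genes described here are 38 genes known as targets of type I interferon, chosen by name from general knowledge of that response. They were chosen with earlier results of these data known. Shares of members set beside shares of all genes below are therefore a description and not an independent test. Of the 38 genes, 37 had a probe named through its RefSeq accession, out of 20018 gene symbols on the array, and Ddx60 had none. Rigi is written Ddx58 in older annotations. The 21 single-colour Agilent arrays used mouse RNA, fell into 7 groups of 3 and came from a study of the repressors Bach1 and Bach2.

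The first experiment compared common lymphoid progenitors (CLPs) from wild-type (WT) mice with CLPs from mice deficient in both Bach1 and Bach2 (DD), with cells pooled from several mice. The second used multipotent progenitors (MPPs) of WT mice, pooled from 4 mice per experiment. They were stimulated overnight with the cytokines SCF (50 ng/ml), IL-6 (10 ng/ml) and IL-3 (5 ng/ml), then infected with a retrovirus carrying GFP alone (control vector) or Bach2 and GFP (Bach2 vector). After 2 days under multilineage conditions the GFP+ cells of both were sorted. Another MPP group, also with the Bach2 vector, had 24 h of multilineage culture and 6 days of B-lineage culture, and was sorted as positive for GFP and for the B-lineage antigen B220. No control-vector group was grown in that way, so culture, time, sort and vector differ together between the B220+ cells and the control vector. Slide differs in part too. All 3 B220+ arrays lay on slide 1 with replicate 1 of the other MPP groups, whose replicates 2 and 3 lay on slide 2. The third experiment compared follicular (Fo) B cells from WT and Bach2-deficient (Bach2KO) mice, all cultured for 24 h with an anti-IgM antibody fragment (10 ug/ml) that engages the B-cell receptor. The sources used here do not give the ages of the mice, the alleles or the promoter driving the vector. The labels do not say that every array came from a separate culture, and the p-values below measure the spread between these arrays, which may be in part technical.

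Type I interferons bind the receptor made of Ifnar1 and Ifnar2, whose kinases activate Stat2 and other STAT proteins. Stat2 joins Irf9 in a complex that binds the interferon-stimulated response element (ISRE) in the promoters of antiviral genes. Interferon gamma acts through another receptor, and many of its target promoters hold the gamma-activated site (GAS). Bach1 and Bach2 pair with small Maf proteins and repress genes through Maf recognition elements, whose core overlaps the AP-1 site. Several of the genes are also driven without interferon by interferon regulatory factors.

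The promoters of 5 members are shown because these genes stood out in the comparisons and differ in whether they carry the ISRE core. Each is the stretch of 250 bases before the RefSeq transcription start in GRCm38.p6, written 5′ to 3′ on the strand of the gene, with capitals marking matches, on either strand, to the ISRE core searched here, GAAA and GAAA separated by any 2 bases.
Isg15, minus strand, chr4:156200819-156201068: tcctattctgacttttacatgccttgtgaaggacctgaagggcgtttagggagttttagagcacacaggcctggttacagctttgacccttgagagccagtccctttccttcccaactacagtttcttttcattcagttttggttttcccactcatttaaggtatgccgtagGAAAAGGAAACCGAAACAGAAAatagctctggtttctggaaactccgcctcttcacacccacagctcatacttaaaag
Rsad2, minus strand, chr12:26456453-26456702: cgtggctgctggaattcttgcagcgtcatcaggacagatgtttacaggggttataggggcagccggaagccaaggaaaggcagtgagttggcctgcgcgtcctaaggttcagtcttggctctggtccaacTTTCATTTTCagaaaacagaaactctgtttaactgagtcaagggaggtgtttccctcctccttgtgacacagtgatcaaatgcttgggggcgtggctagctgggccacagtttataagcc
Ifit3, plus strand, chr19:34583279-34583528: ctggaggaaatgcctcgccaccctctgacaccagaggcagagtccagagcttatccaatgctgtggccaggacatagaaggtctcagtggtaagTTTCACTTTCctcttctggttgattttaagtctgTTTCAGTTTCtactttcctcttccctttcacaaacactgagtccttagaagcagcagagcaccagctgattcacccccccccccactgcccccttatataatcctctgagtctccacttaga
Cmpk2, plus strand, chr12:26468965-26469214: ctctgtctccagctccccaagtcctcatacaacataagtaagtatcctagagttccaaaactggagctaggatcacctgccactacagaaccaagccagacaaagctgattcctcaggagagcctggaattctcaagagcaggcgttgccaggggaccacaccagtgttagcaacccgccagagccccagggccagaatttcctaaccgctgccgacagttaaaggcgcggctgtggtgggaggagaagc
Oasl1, plus strand, chr5:114922990-114923239: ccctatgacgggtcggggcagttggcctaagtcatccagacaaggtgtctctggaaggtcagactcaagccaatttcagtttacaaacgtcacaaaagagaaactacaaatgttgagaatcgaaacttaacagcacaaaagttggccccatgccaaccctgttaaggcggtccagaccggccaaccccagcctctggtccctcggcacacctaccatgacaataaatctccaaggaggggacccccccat
In Isg15 3 overlapping matches began 78, 72 and 66 bases before the start, counting the first base of each on the gene's strand. Rsad2 had 1 match, at 120 bases before the start, and Ifit3 had 2, at 156 and 122 bases before it. The stretches of Cmpk2 and Oasl1 held no match. Cmpk2 and Rsad2 are neighbours on chromosome 12 and are read in opposite directions away from each other, with start sites 12763 bases apart.

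RefSeq promoter windows, which run from 250 bases before to 50 after the start, were found for 31 of the 38 genes, Ddx60 included. The ISRE core, searched on both strands, lay in the window of 13 of these 31 genes (41.9%), against 3.99% of 27025 genes. The others with a match were Ifit1, Ifih1, Ifitm3, Oas1a, Oas3, Rigi, Stat2, Eif2ak2, Trim30a and Ddx60. The matches of Ifih1 (base 32), Eif2ak2 (base 18), Rigi (base 2) and Ifitm3 (bases 2 and 19) lay after the start, as did that in 1 of the windows of Trim30a (base 2). The GAS letters TTCNNNGAA were found in 7 of the 31 (22.6%) against 9.55% of all genes. TGANTCA, the AP-1 core shared by Maf recognition elements, was also found in 7 (22.6%), namely Rsad2, Ifit3, Ifitm3, Oas3, Ifi35, Xaf1 and Trim30a, against 8.97% of all genes. These matches describe the letters of the windows. Oas2, Usp18, Dhx58, Parp9, Parp14, Rtp4 and Zbp1 had no window in the table.

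Levels below are log2 spot signals minus the 75th percentile of the array. A level of 1 gene may be compared between arrays, and levels of different genes may not, since each rests on its own probe. All 37 genes were well above background on every CLP array, 36 to 37 on the MPP arrays, 31 to 35 on the WT Fo B arrays and 33 to 36 on the Bach2KO arrays. Of all gene probes, 66.8 to 81.5% were above background on the CLP arrays, 62.6 to 81.4% on the MPP arrays and 50.9 to 58.8% on the Fo B arrays. The RNA of CLPs and MPPs was amplified in 2 rounds, and that of Fo B cells by a linear amplification. The 3 experiments are therefore set side by side as a description.

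The Bach2 labels were checked with 2 probes of Bach2. Levels of the brighter probe were 3.49, 3.06 and 3.55 in WT Fo B cells and -0.07, -1.01 and -0.09 in Bach2KO cells, and 3.46, 1.49 and 2.38 in WT CLPs against 1.17, 0.10 and -0.27 in DD CLPs. With the control vector that probe read -3.87, -2.96 and -2.15, and with the Bach2 vector -0.92, -2.03 and -2.57. The 2 vector groups overlapped there but not on the other probe, which read -8.57, -7.11 and -6.34 with the control vector and -1.25, -3.57 and -3.90 with added Bach2. B220+ cells read -2.75, -2.49 and -4.10 on the brighter probe, overlapping the control vector. On the other probe they read -5.12, -5.02 and -1.54, above every control-vector array. Bach1 read 1.87, 1.96 and 2.17 in WT and 2.41, 1.14 and 0.88 in DD CLPs, which overlap, and the sources used here do not say whether its probe lies in the deleted part.

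Across the groups the interferon response genes were highest in CLPs and low in Fo B cells and control-vector MPPs. When each gene was set to its own mean over the 21 arrays, the median over the 37 genes was 1.05 ± 0.10 (SD, n = 3) in WT CLPs and 1.16 ± 0.08 in DD CLPs. It was -0.90 ± 0.32 with the control vector, 0.20 ± 0.57 with the Bach2 vector and 0.04 ± 0.11 in B220+ cells. In WT Fo B cells it was -1.17 ± 0.12 and in Bach2KO Fo B cells -0.67 ± 0.35. A CLP group had the highest mean for 24 of the 37 genes, and WT Fo B cells or control-vector MPPs had the lowest for 14 each. The order within 4 pairs of neighbours was within the spread of their arrays, namely DD over WT CLPs, Bach2-vector MPPs over B220+ cells, Bach2KO Fo B cells over control-vector MPPs and these over WT Fo B cells.

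**Figure D1:**
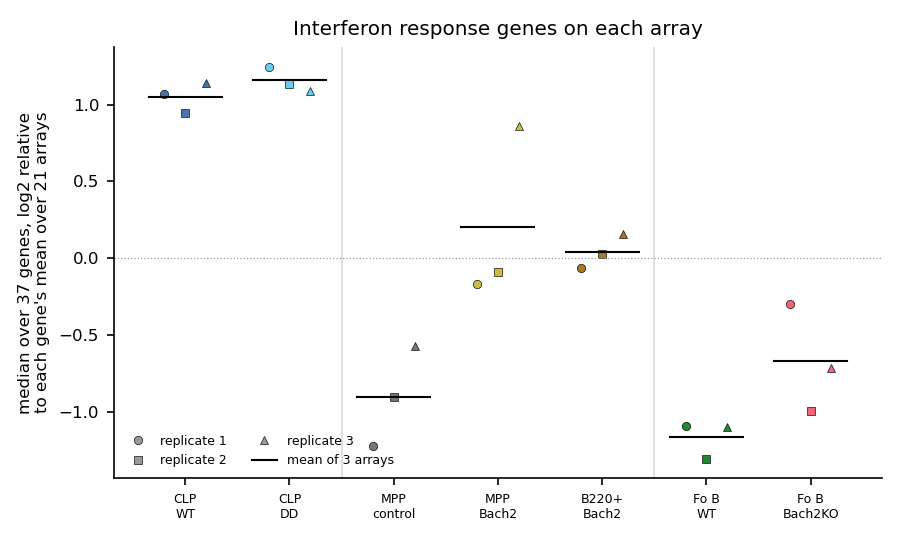
Each point is 1 array and gives the median over 37 interferon response genes of the log2 level relative to each gene's mean over 21 arrays, with a line at the mean of 3 arrays. The 6 CLP arrays lie between 0.94 and 1.25, the control-vector MPPs between -1.22 and -0.57 and the WT Fo B cells between -1.31 and -1.09.

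Single genes departed from this order. Ifitm3, which blocks virus entry at membranes, read 6.46, 6.88 and 7.01 in control-vector MPPs, above every CLP array (3.59 to 5.85), and read between -1.67 and 0.59 on the Fo B arrays. Oasl1, known in mice to restrain translation of Irf7, read 4.84, 5.03 and 5.47 in Bach2KO Fo B cells, above all other arrays. Ifi44 read between -0.28 and 1.79 in CLPs and was not well above background on any Fo B array, nor on 2 of the 3 arrays of each MPP group. The immunoproteasome subunit Psmb8 varied little, with group means of 5.76 to 6.52. The brighter probe of Adar, the RNA editing enzyme, was highest in Bach2KO Fo B cells with a mean of 3.83 ± 0.07 and lowest in B220+ cells with 1.20 ± 0.23. Its other probe put B220+ cells 0.42 above control-vector and 0.41 above Bach2-vector MPPs, where the brighter one put them 0.30 and 0.50 below, so the low end rests on 1 probe.

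Irf7, the factor that amplifies interferon production, varied most among CLP arrays. It read -4.18, -0.32 and 0.65 in WT CLPs and -4.18, -0.37 and -1.33 in DD CLPs. Replicate 1 was low in both groups, and replicate 1 of both lay on the same slide.

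**Figure D2:**
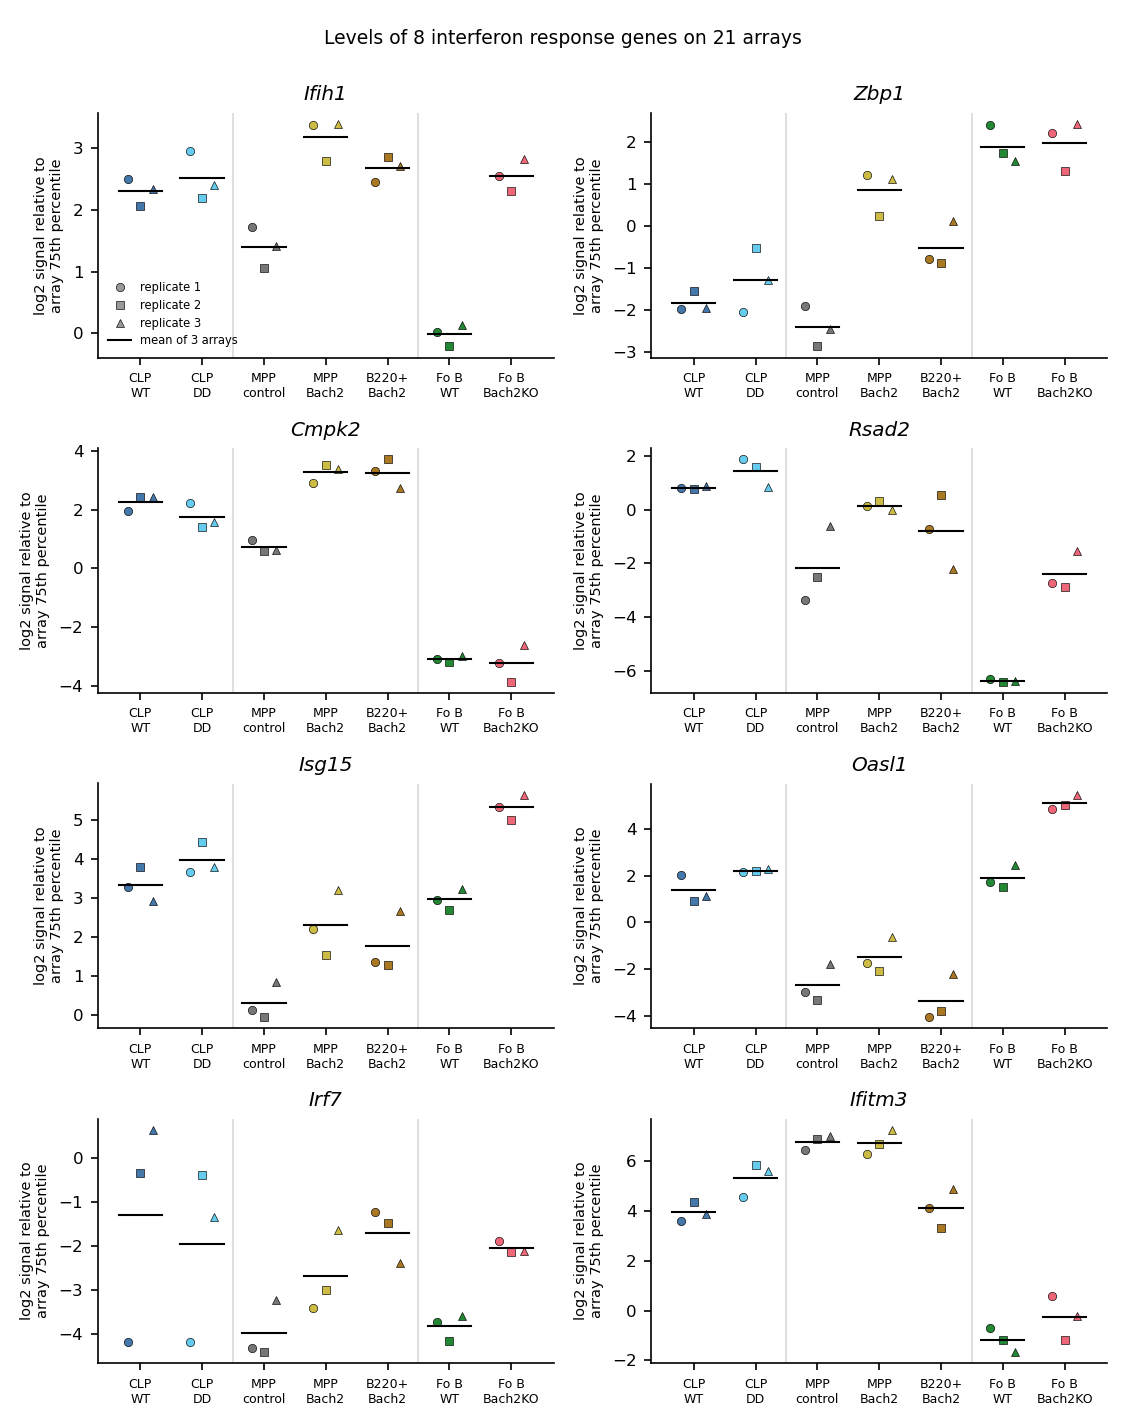
Levels of 8 genes, in log2 units above the 75th percentile of the array, with 1 point per array and a line at the mean of 3 arrays. Rsad2 lies at -6.40 to -6.31 in WT Fo B cells and at -2.86 to -1.54 in Bach2KO cells, and Zbp1 is higher with the Bach2 vector than with the control vector and overlaps between WT and Bach2KO Fo B cells.

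The vector experiment asked what added Bach2 does in MPPs. With the Bach2 vector the nucleic acid sensors Zbp1 and Ifih1, the nucleotide kinase Cmpk2, the apoptosis gene Xaf1 and the ADP-ribosyltransferase Parp9 rose by 2.60-fold to 9.65-fold, and no member fell. These 5 of 37 passed the test (adjusted p under 0.05 in limma over 16998 genes), where 1.07% of all genes were called higher and 0.724% lower. Of the 37 genes, 35 lay above 0, as did 47.2% of all genes, with a median difference of 0.99 on the log2 scale, against -0.02 over all genes tested. In 17 the Bach2-vector arrays all lay above the control arrays and in 0 below, against 7.65% and 7.29% of all genes.

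Among the sensors, Zbp1, which binds Z-form nucleic acid and can start cell death, read -1.91, -2.88 and -2.45 with the control vector and 1.21, 0.25 and 1.12 with added Bach2. All 3 Bach2-vector arrays were above all 3 control arrays. The difference was 3.27 ± 0.40 (SE, n = 3 and 3; 9.65-fold), with a limma adjusted p of 0.0054. Ifih1, the helicase that detects long double-stranded RNA, read 1.72, 1.07 and 1.41 with the control vector and 3.38, 2.79 and 3.39 with added Bach2. The groups did not overlap, and the difference was 1.79 ± 0.28 (3.45-fold, limma adjusted p = 0.0149). A further probe of Ifih1 gave 1.37 and one of Zbp1 gave 3.51. Dhx58, a regulator of these helicases, read -0.74, -0.45 and -0.35 and then 0.80, 0.74 and 2.14, without overlap, but its 1.74 ± 0.39 did not pass (adjusted p = 0.0698).

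Among effectors, Cmpk2, a mitochondrial nucleotide kinase, read 0.97, 0.60 and 0.62 with the control vector and 2.92, 3.51 and 3.37 with added Bach2. The difference of 2.53 ± 0.30 (5.79-fold) had a limma adjusted p of 0.00498. Its neighbour Rsad2, which encodes the antiviral enzyme viperin, read -3.36, -2.50 and -0.59 and then 0.13, 0.33 and -0.03. All Rsad2 levels with the Bach2 vector were above those with the control vector, whose arrays were widely spread, and the 2.30 ± 0.78 did not pass (adjusted p = 0.307). Xaf1, an antagonist of an apoptosis inhibitor, read -1.95, -1.54 and -0.62 and then 0.70, 0.62 and 1.72, a rise of 2.38 ± 0.48 (5.22-fold, adjusted p = 0.0467). Parp9, which works in a complex with Dtx3l, read 2.44, 2.80 and 2.58 and then 3.72, 3.74 and 4.50, a rise of 1.38 ± 0.28 (2.60-fold, adjusted p = 0.0468). Its partner Dtx3l had a difference of 1.24 ± 0.30 (adjusted p = 0.103) and its relative Parp14 one of 1.08 ± 0.29 (adjusted p = 0.141).

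Several genes with differences as large had larger standard errors and did not pass. Ifit3, a binding partner of Ifit1, read -4.09, -4.50 and -3.23 with the control vector and -0.46, -1.45 and 0.23 with added Bach2. The groups were far apart, yet 3.38 ± 1.08 (10.4-fold) had an adjusted p of 0.259. The spread was estimated over all 9 MPP arrays, and the B220+ arrays of Ifit3 ranged from -5.66 to -0.52. Isg15, the ubiquitin-like modifier, read 0.14, -0.04 and 0.86 and then 2.21, 1.55 and 3.19, a difference of 2.00 ± 0.51 (adjusted p = 0.119). Usp18, the enzyme that removes Isg15 from proteins and damps the receptor, read -1.78, -1.69 and -0.72 and then 0.39, -0.07 and 1.27, a difference of 1.93 ± 0.47 (adjusted p = 0.101). Rtp4, a chaperone of membrane receptors, read -2.26, -2.03 and 0.73 and then -0.60, 0.65 and 2.87, which overlap. On these arrays replicate 3 was the highest of its group for Isg15, Usp18 and Rtp4 with both vectors.

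By role, the 3 Ifit genes had a median difference of 1.93, the 6 sensors and helicases 1.36 and the 3 genes Parp9, Parp14 and Dtx3l 1.24. The 4 transcription factors and regulators had a median of 1.06, with Stat2 at 0.83 ± 0.24 and Irf9 at 0.60 ± 0.37, neither passing. The 5 Oas genes, most of which make the oligoadenylates that activate RNase L, had a median of 0.95 and ranged from 0.12 for Oas1a to 1.67 for Oasl2. The antigen processing genes Psmb8, Psmb9 and Tap1 had a median of 0.36. Differences of Ifitm3 and of Eif2ak2, the kinase that stops translation on double-stranded RNA, were -0.03 (95% interval -0.97 to 0.91) and -0.04 (-1.10 to 1.03).

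Control-vector and Bach2-vector arrays of the same number deviated together, so the replicate number was also used as a block. Over the 9 arrays the blocked fit called 7 members higher and 0 lower (against 1.08% and 0.830% of all genes), adding Dhx58 (adjusted p = 0.0412), Isg15 (0.0121) and Usp18 (0.0161) and losing Parp9 (0.0502). With only the 6 arrays of the pair and the block, a choice made after seeing the data, 15 members were called higher and 0 lower, against 2.80% and 2.16% of all genes, Ifit3 (adjusted p = 0.00234), Isg15 (0.0093) and Rtp4 (0.0112) among them. Leaving out any 1 of the 6 arrays, without the block, left 2 or 3 calls. Cmpk2 and Zbp1 were called each time. Ifih1 was called only without control replicate 1 or Bach2 replicate 2, with adjusted p of 0.0551 to 0.0796 in the other 4, Xaf1 only without control replicate 3, and Parp9 in none. Median scaling left 3 calls, without Ifih1 (adjusted p = 0.0777) and Parp9 (0.0816). Within slide 1 the median member difference was 0.95 and within slide 2 it was 1.10.

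Markers of other cells moved in the same comparison. Mmp8, a granulocyte gene, fell by 6.09 ± 0.61. On the NK list Klrd1, a receptor gene, rose by 4.67 ± 0.64, while Gzmb, a cytotoxic granule gene, lay at -4.15 ± 1.96 (adjusted p = 0.659), and Ncr1, a defining NK gene, was above background on no array of either group. The linear signals of each list were also summed, and the log2 of that sum is given. The brightest probes weigh most in such sums. Of 9 plasmacytoid dendritic-cell markers, cells known for interferon production, 0 passed and 7 lay above 0. Their sums were 6.22 to 7.07 with the control vector and 6.71 to 7.48 with added Bach2. Of 10 granulocyte markers 1 fell, with sums of 8.91 to 8.98 and 8.45 to 8.75, and of 9 NK markers tested 1 rose and 2 lay below 0, with sums of 4.28 to 5.27 and 5.66 to 5.94. Of 8 conventional dendritic-cell markers tested 0 passed and 5 lay above 0 (median 0.84), but their sums did not overlap, at 3.32 to 4.45 with the control vector and 5.11 to 5.62 with added Bach2, while Xcr1 was above background in neither group. Of 9 monocyte and macrophage markers 0 passed and 8 lay below 0 (median -0.46), with sums of 4.98 to 5.53 and 4.37 to 4.94, also without overlap. Of 8 erythroid and megakaryocyte markers tested 0 passed and 7 lay above 0, yet their sums were lower without overlap (3.03 to 3.58 and 0.94 to 1.49), where Pf4 had -2.42 ± 0.69 (adjusted p = 0.18). The B-cell and T-cell sums overlapped, with Vpreb3, a pre-B-cell receptor gene, higher by 2.03 ± 0.40 as 1 of 8 B-cell markers and 0 of 8 T-cell markers passing. Their part in the result was not tested, and in bulk samples fewer cells of a type and less RNA per cell cannot be told apart.

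**Figure D3:**
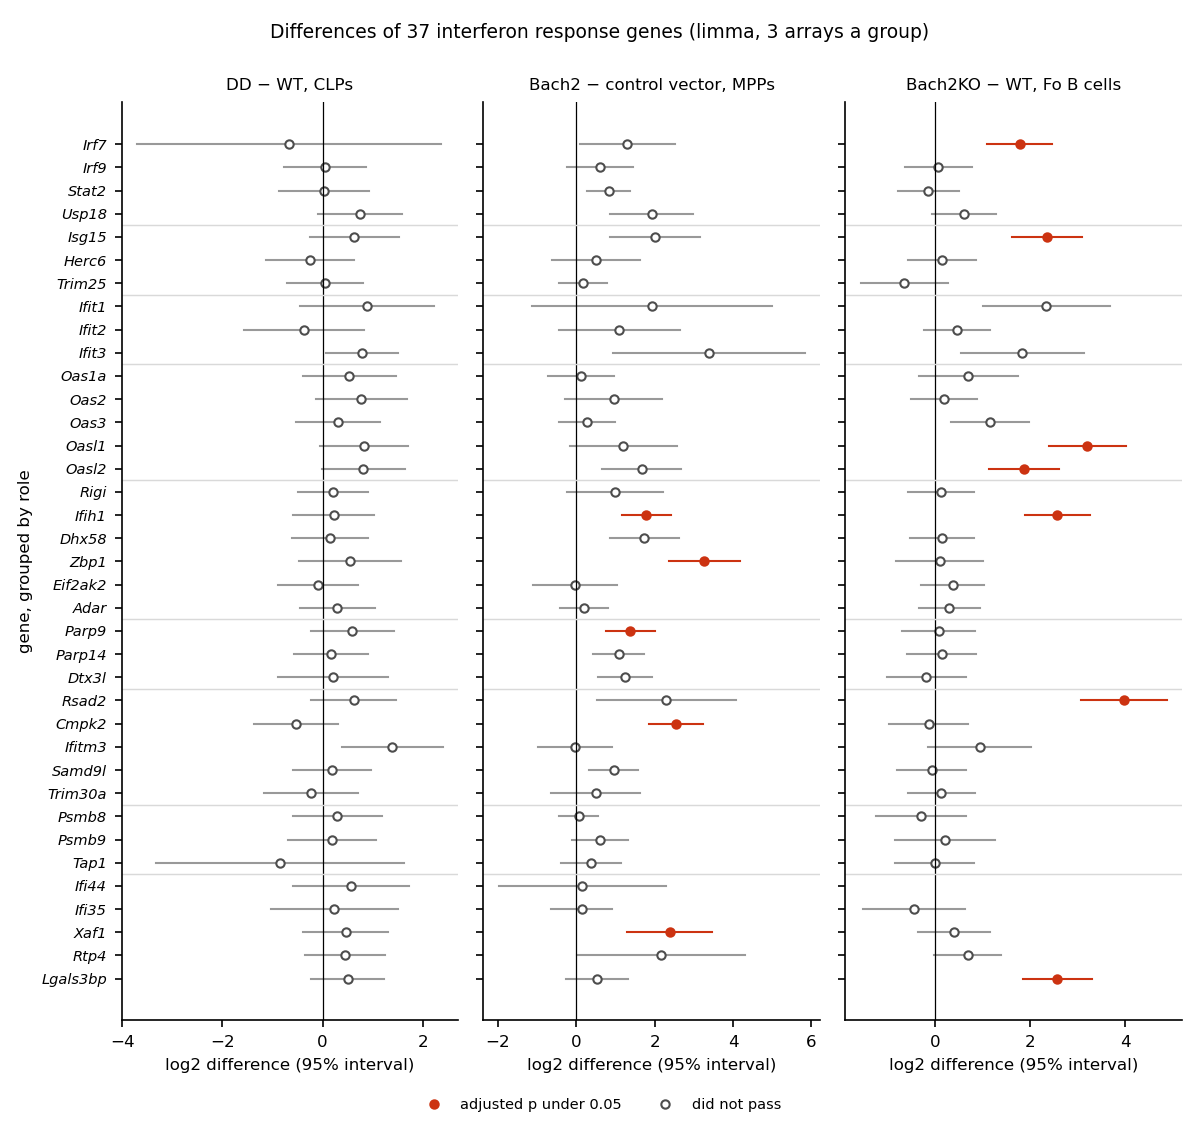
Log2 differences with 95% intervals for the 37 genes, grouped by role, in CLPs, MPPs and Fo B cells, with filled points where the limma adjusted p is under 0.05. None is filled in CLPs, 5 are filled for the vector and 7 for Bach2KO, all to the right of 0, and only Ifih1 is filled in both.

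The Fo B comparison asked what loss of Bach2 does after B-cell receptor stimulation. Without Bach2 the antiviral gene Rsad2, the Oas relatives Oasl1 and Oasl2, the sensor Ifih1 and the modifier Isg15 rose. The regulator Irf7 and the secreted glycoprotein gene Lgals3bp rose too, and fitted log2 differences ran from 1.78 for Irf7 to 3.98 for Rsad2. These 7 of 36 members tested passed, against 2.20% of 13087 genes called higher, and 0 fell, against 0.512% called lower. Among the 7, Rsad2 met the filter on arrays above background only through the Bach2KO group. Of the 36, 28 lay above 0, as did 38.2% of all genes, but their median difference was only 0.26, against -0.16 over all genes. In 13 the Bach2KO arrays all lay above the WT arrays and in 0 below, against 8.13% and 10.6% of all genes.

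Rsad2 read -6.31, -6.40 and -6.37 in WT cells, not well above background on any of the 3 arrays, and -2.74, -2.86 and -1.54 in Bach2KO cells, above background on each. The fitted difference was 3.98 ± 0.40, with a limma adjusted p of 0.000947. Rsad2 entered the test only through its Bach2KO arrays, since the filter asked for 3 arrays above background. Its call is therefore not independent of that filter. Taking for each WT array the lowest signal that was well above background gave 11.1-fold. That signal is not a detection limit of the Rsad2 probe, so 11.1-fold is not a lower bound. Under normexp background correction the Rsad2 difference was 0.75 (limma adjusted p = 0.661), so its size depends on the processing. Cmpk2, the neighbour of Rsad2, read -3.09, -3.17 and -2.97 in WT and -3.20, -3.85 and -2.60 in Bach2KO cells. In Bach2KO cells Cmpk2 was above background on 2 of the 3 arrays. There the groups overlapped, with a difference of -0.14 and a 95% interval of -0.97 to 0.70.

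In the Oas family, Oasl1 read 1.74, 1.53 and 2.45 in WT and 4.84, 5.03 and 5.47 in Bach2KO cells. The groups were far apart, and the difference was 3.21 ± 0.36 (9.23-fold, limma adjusted p = 0.00175). Oasl2 read -3.19, -3.57 and -3.53 and then -1.53, -1.96 and -1.19, a rise of 1.87 ± 0.32 (3.65-fold, adjusted p = 0.0175). All 5 Oas genes lay above 0 with a median of 1.15. Oas3 at 1.15 ± 0.36 (adjusted p = 0.198), Oas1a at 0.70 ± 0.46 (0.66) and Oas2 at 0.19 ± 0.31 (0.834) did not pass. Oas3 was above background on 2 of the 3 arrays of each group and Oas2 on 2 of the 3 Bach2KO arrays.

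Isg15 read 2.95, 2.69 and 3.24 in WT and 5.33, 4.98 and 5.64 in Bach2KO cells, a rise of 2.36 ± 0.32 (5.12-fold, adjusted p = 0.00572). Each Bach2KO array was higher than each WT array. Ifih1 read 0.03, -0.21 and 0.13 and then 2.55, 2.30 and 2.82, a rise of 2.57 ± 0.30 (5.95-fold, adjusted p = 0.00238), and its further probe gave 2.65. The other sensors did not share it, with Zbp1 at 0.09 (95% interval -0.82 to 1.00), Dhx58 at 0.13 (-0.54 to 0.81) and Rigi at 0.12 (-0.57 to 0.81). Irf7 read -3.72, -4.16 and -3.60 in WT, above background on 2 of the 3 arrays, and -1.88, -2.13 and -2.11 in Bach2KO cells, a rise of 1.78 ± 0.30 (3.44-fold, adjusted p = 0.0157). Lgals3bp, which binds galectins, read -1.14, -1.46 and -1.59 and then 1.50, 0.83 and 1.22, a rise of 2.58 ± 0.32 (5.96-fold, adjusted p = 0.00329).

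Of the 3 Ifit genes, Ifit2 was above background on all 3 arrays of each group, and its difference of 0.46 did not pass. Ifit1 and Ifit3 were near the background on some WT arrays. Ifit1 was above background on 1 of the 3 WT arrays and on all Bach2KO arrays, reading -6.62, -5.01 and -4.32 and then -3.64, -2.93 and -2.35, without overlap. Its difference of 2.34 ± 0.59 had an adjusted p of 0.0901. Ifit3 read -4.96, -5.82 and -3.63 and then -3.69, -2.82 and -2.37, with an overlap between WT replicate 3 and Bach2KO replicate 1 (1.84 ± 0.57, adjusted p = 0.192). Stat2 at -0.15 (95% interval -0.79 to 0.49), Irf9 at 0.06 (-0.64 to 0.77) and Parp9 at 0.08 (-0.69 to 0.84) were close to 0, as were Psmb8, Psmb9 and Tap1 with a median of -0.01.

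Arrays of the same number deviated together here too, though replicates 2 and 3 also share a slide. With the block 14 members were called higher and 1 lower, against 9.57% and 13.2% of all genes. Added were Ifit1 (adjusted p = 3.05e-06), Ifit3 (0.00032), Oas3 (0.00288), Ifitm3 (0.0182), Rtp4 (0.0259), Oas1a (0.0476) and Usp18 (0.0478), and the ubiquitin ligase gene Trim25 was called lower at -0.65 (0.036). Scaling each array by its median moved the median of all genes to -0.39 and left 18 of 36 members above 0 and 2 calls, Rsad2 and Oasl1, against 0.925% of all genes called higher and 0.153% lower, and normexp background correction left 4 calls, without Rsad2, Irf7 and Oasl2. Quantile normalization left 5, without Irf7 and Oasl2. Irf7 and Oasl2 were not called without WT replicate 2, WT replicate 3 or Bach2KO replicate 3 (adjusted p of 0.0715 to 0.126).

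Genes of other cells also differed between these groups. Of 5 erythroid and megakaryocyte markers tested 3 rose in Bach2KO cells. Alas2 rose by 3.93 and Hba-a1 by 3.74 on the log2 scale, and Pf4 by an estimated 7.62-fold. The sums of the list, as the log2 of summed signals, were -1.25 to 0.79 in WT and 2.19 to 4.06 in Bach2KO cells. Pf4 was above background on no WT array and Alas2 on 1 of 3, while Klf1, Itga2b and Gp9 were above background in neither group. Pf4 thus entered the test only through the Bach2KO arrays. So did Batf3 on the conventional dendritic-cell list and Cx3cr1 on the monocyte and macrophage list. Of 7 plasmacytoid dendritic-cell markers tested, Ccr9 (3.88 ± 0.34) and Cox6a2 (2.07 ± 0.37) rose and all 7 lay above 0, with sums of 8.81 to 9.07 and 8.73 to 9.46, and Runx2 was above background in neither group. The receptor gene Il2rb, on the NK list, rose by 4.62 ± 0.28 and Thy1, on the T-cell list, by 1.73 ± 0.30, while the NK genes Ncr1, Klrb1c, Klrd1, Gzmb and Klrk1 were above background in neither group. Of 5 conventional dendritic-cell markers tested Flt3 alone passed, falling by 1.68 ± 0.31, while the other 4 lay above 0, 3 of them at an unadjusted p under 0.05 (list median 1.35). The sums of that list did not overlap, at 6.24 to 7.10 in WT and 7.45 to 8.46 in Bach2KO cells, and Xcr1, Clec9a, Clec10a and Cd209a were above background in neither group. Of 6 granulocyte markers tested 0 passed and 5 lay above 0, 4 of them at an unadjusted p under 0.05 (median 2.93), with sums of 0.65 to 4.04 and 3.44 to 5.62, which overlap. Of 6 monocyte and macrophage markers tested 0 passed, 4 lay above 0 and 2 below (median 0.94), 3 and 1 of them at an unadjusted p under 0.05, with sums of 3.89 to 4.15 and 3.15 to 4.19, and Ccr2 and Fcgr1 were above background in neither group. The NK sums were 3.09 to 3.38 and 3.76 to 4.14, and the T-cell sums 6.42 to 7.10 and 6.26 to 6.58. Of 9 B-cell markers 0 passed and 8 lay below 0, with sums of 8.65 to 9.51 and 7.72 to 8.42. Their part in the result was not tested.

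Gain and loss of Bach2 were thus each followed by higher levels of some members, in different cells. Of the 5 genes that rose with the vector and the 7 that rose in Bach2KO cells, Ifih1 was in both lists, 1 of 5 and 1 of 7. With the replicate number as a block, Isg15 and Usp18 were called higher in both comparisons too. Zbp1 differed by 3.27 with the vector and 0.09 in Bach2KO cells, Cmpk2 by 2.53 and -0.14, and Xaf1 by 2.38 and 0.40. Oasl1 differed by 1.20 ± 0.60 with the vector and 3.21 ± 0.36 in Bach2KO cells, and Lgals3bp by 0.52 ± 0.35 and 2.58 ± 0.32. Rsad2 differed by 2.30 with the vector and by a fitted 3.98 in Bach2KO cells, where the WT level was not well above background. Isg15 differed by 2.00 and 2.36, and Ifit3 by 3.38 and 1.84. Over the 36 genes measured in both, 26 lay above 0 in both, and the differences correlated with Pearson r = 0.35 and Spearman rho = 0.32, as a description across genes that share promoter elements and arrays. The same overlap and correlations were not computed over all genes, and the difference between the effects was not tested.

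**Figure D4:**
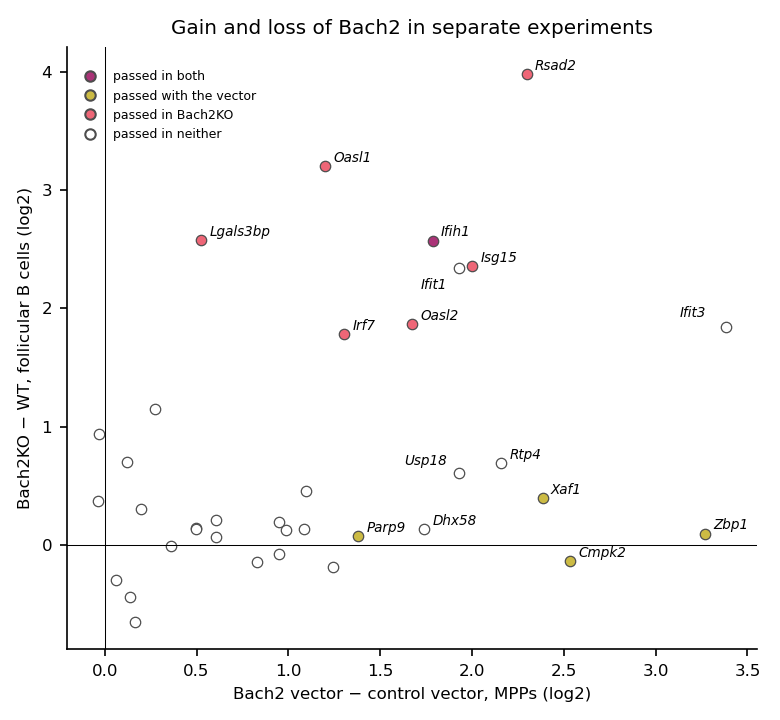
Each point is 1 of 36 interferon response genes, with the log2 difference between Bach2-vector and control-vector MPPs on the x axis and between Bach2KO and WT Fo B cells on the y axis, coloured by which limma adjusted p was under 0.05. Zbp1, Cmpk2 and Xaf1 lie along the x axis, Lgals3bp and Oasl1 lie high on the y axis, and Ifih1, which passed in both, lies at 1.79 and 2.57. Rsad2 is drawn at its fitted difference, although its WT Fo B level was not well above background.

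In B220+ cells, compared with control-vector MPPs, the response genes split. Samd9l, Cmpk2, Stat2, Dhx58, Zbp1, Ifih1, Irf7 and Irf9 rose and Ifitm3 fell. The 8 higher calls of 37 stand against 4.65% of all genes and the 1 lower call against 7.45%. Of the 37, 28 lay above 0, as did 34.2% of all genes, with a median of 0.65, where the median of all genes was -0.29. In 15 the arrays of the groups separated upward and in 2 downward, against 11.0% and 23.5% of all genes.

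Here 3 of the 4 transcription factors and regulators passed. Stat2 read 1.09, 1.55 and 1.46 with the control vector and 2.67, 3.07 and 2.65 in B220+ cells, a rise of 1.43 ± 0.24 (2.70-fold, limma adjusted p = 0.00594). Irf9, its partner, read 2.28, 2.19 and 2.47 and then 3.47, 3.80 and 3.72, a rise of 1.35 ± 0.37 (adjusted p = 0.048). Irf7 read -4.32, -4.41 and -3.21 and then -1.22, -1.48 and -2.39, a rise of 2.29 ± 0.54 (4.88-fold, adjusted p = 0.0255). None of the 3 overlapped between the groups, whereas Usp18 at 0.20 ± 0.47 did.

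Samd9l, an antiviral gene that limits cell growth, read -1.17, -1.13 and -0.91 in control-vector MPPs, -0.48, -0.30 and 0.42 in Bach2-vector MPPs and 1.17, 1.38 and 1.17 in B220+ cells. The 3 groups did not overlap. The rise was 2.31 ± 0.28 over the control vector (4.96-fold, limma adjusted p = 0.00121) and 1.36 ± 0.28 over Bach2-vector MPPs (2.56-fold, adjusted p = 0.0234). Ifitm3 read 6.28, 6.71 and 7.26 in Bach2-vector MPPs and 4.12, 3.34 and 4.87 in B220+ cells. It was 6.39-fold lower in B220+ cells than with the control vector (-2.68 ± 0.42, adjusted p = 0.00403) and 6.25-fold lower than in Bach2-vector MPPs (-2.64 ± 0.42, adjusted p = 0.00739).

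Cmpk2 read 3.32, 3.71 and 2.75 in B220+ cells, 5.77-fold above the control vector (adjusted p = 0.00124) and overlapping the Bach2-vector MPPs, with a difference from them of -0.01 (95% interval -0.69 to 0.68). Its dimmer probe gave 0.75 over the control vector and -1.52 against Bach2-vector MPPs, so the 2 probes did not give 1 picture. Dhx58 read 1.17, 1.54 and 1.76 in B220+ cells (2.00 ± 0.39 over the control vector, adjusted p = 0.0106). Zbp1 read -0.78, -0.88 and 0.13, above the control vector (1.90 ± 0.40, adjusted p = 0.0159) and below Bach2-vector MPPs by an amount that did not pass (-1.37 ± 0.40, adjusted p = 0.0811). Ifih1 read 2.45, 2.86 and 2.71 (1.27 ± 0.28 over the control vector, adjusted p = 0.0192).

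Against Bach2-vector MPPs 1 member was higher (Samd9l) and 1 lower (Ifitm3), where 2.01% of all genes were called higher and 4.16% lower. Of the 37, 14 lay above 0, as did 34.4% of all genes, with a median of -0.51 against -0.25 over all genes. In 3 the arrays separated upward and in 10 downward, against 7.45% and 21.7% of all genes. Oasl2 read 0.09, -0.65 and 1.09 with the Bach2 vector and -1.41, -1.71 and -1.48 in B220+ cells, without overlap, but its -1.71 ± 0.45 did not pass (adjusted p = 0.0577). The 3 Ifit genes had a median of -1.91. B220+ replicate 3 read -8.88 for Ifit1, not well above background, against -2.98 and -4.55 on the other arrays, and -5.66 for Ifit3 against -2.91 and -0.52. Without that array 6 members were called, 5 of them lower, and the share of all genes called was not computed there. Without Bach2-vector replicate 1, B220+ replicate 1 or B220+ replicate 2, 1 call was left, Ifitm3. Samd9l lost its call in these runs (limma adjusted p of 0.0594, 0.0657 and 0.0804). It also lost it without Bach2-vector replicate 2 (0.0952), where Oasl2 was called instead.

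Both B220+ comparisons share arrays with the vector comparison, and their values are given side by side only. Without control replicate 2, 5 of the 9 calls against the control vector were left, and Irf9 was called in none of the 6 runs that left out 1 array (adjusted p of 0.0717 to 0.153). Scaling by the median moved the median of all genes to 0.02 and the members' median to 0.96, with 32 of 37 above 0. Without B220+ replicate 2 the members' median was 0.39. With the slide as a block Ifih1 (limma adjusted p = 0.0701), Irf9 (0.0893) and Zbp1 (0.0758) were not called against the control vector.

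The B-lineage sort was set against B-cell markers. Pax5, the B-lineage factor, read -5.71, -5.63 and -6.07 in B220+ cells, below its -5.30, -4.89 and -4.62 with the control vector, and Ms4a1, which encodes the B-cell antigen CD20, was above background on no B220+ array. The sorted cells thus lacked the transcript levels of Pax5 and Ms4a1 seen in WT Fo B cells, whose RNA was amplified in another way. There Pax5 read -0.07, -0.90 and -0.50 and Ms4a1 read 7.65, 6.66 and 6.81. Ebf1, another B-lineage factor, was above background on at least 1 B220+ array and on no control-vector or Bach2-vector array. It was on too few arrays to be tested. Of 8 B-cell markers tested only Cd22 rose over the control vector (1.26 ± 0.24), with sums of 3.16 to 3.82 with the control vector and 3.57 to 4.19 in B220+ cells. On the plasmacytoid dendritic-cell list Ly6d (5.74 ± 0.62) and Cox6a2 (4.70 ± 0.72) rose, 2 of 9, with sums of 6.22 to 7.07 and 7.45 to 8.03. On the NK list Klrk1, Klrd1 and Il2rb rose, 3 of 9, and 3 lay below 0, among them Gzmb at -4.94 ± 1.96 (adjusted p = 0.133), with sums of 4.28 to 5.27 and 5.80 to 6.12, and Ncr1 was not above background. Klrk1 was above background on no control-vector or Bach2-vector array and so entered the test only through the B220+ arrays. On the conventional dendritic-cell list Clec10a (1.66 ± 0.30) and Flt3 (2.01 ± 0.43) rose and Batf3 fell (-4.69 ± 0.52), 3 of 8, with sums of 3.32 to 4.45 and 5.07 to 5.58. On the T-cell list Cd3d (2.24 ± 0.28) and Cd3g rose and Thy1 fell (-2.28 ± 0.57), 3 of 8, with sums of 4.00 to 4.41 and 2.60 to 3.82. The rise of Cd3g was an estimated 17.2-fold, since Cd3g was above background on no control-vector array. Cd3g was above background on no Bach2-vector array either, and it too entered the test only through the B220+ arrays. On the erythroid and megakaryocyte list Gp9 rose (1.68 ± 0.38) and Pf4 fell (-6.96 ± 0.69), with sums of 3.03 to 3.58 and -0.81 to 0.77. Granulocyte genes moved both ways, with Camp higher and Mmp8, Prtn3 and Ms4a3 lower, with sums of 8.91 to 8.98 and 8.52 to 8.78, and 0 of 9 monocyte and macrophage markers passed, with sums of 4.98 to 5.53 and 5.13 to 5.83. Their part in the result was not tested.

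In CLPs the loss of both factors was not followed by a called change of any interferon response gene. None of 37 passed in limma, where 0.00607% of 16469 genes were called higher and 0% lower. At an unadjusted p under 0.05 there were 2 higher and 0 lower, against 2.03% and 1.74% of all genes. Of the 37, 30 lay above 0, as did 53.7% of all genes, with a median of 0.29 against 0.04 over all genes. In 7 the DD arrays all lay above the WT arrays and in 0 below, against 4.92% and 2.98% of all genes.

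Ifitm3 read 3.59, 4.37 and 3.88 in WT and 4.56, 5.85 and 5.62 in DD CLPs. All DD arrays lay above all WT arrays, with a difference of 1.40 ± 0.44 (95% interval 0.39 to 2.40, adjusted p = 0.999). Ifit3 read 0.07, 0.25 and -0.07 and then 1.02, 0.77 and 0.83, a difference of 0.79 ± 0.32 (0.07 to 1.52, adjusted p = 0.999). Oasl2 read 2.09, 1.51 and 2.08 and then 3.07, 2.73 and 2.33, a difference of 0.82 ± 0.36 (-0.02 to 1.65, adjusted p = 0.999). These 3 did not overlap between the genotypes, and neither did Oasl1, Usp18, Lgals3bp and Rigi.

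The 5 Oas genes all lay above 0 in DD CLPs with a median of 0.78. For Cmpk2, which rose with the Bach2 vector, DD CLPs read 2.21, 1.43 and 1.58 against 1.94, 2.43 and 2.45 in WT, a difference of -0.53 with an interval of -1.37 to 0.30. Zbp1 had 0.54 (-0.48 to 1.56) and Ifih1 0.22 (-0.59 to 1.03). Their further probes gave 0.29 for Zbp1 and -0.51 for Ifih1, so the 2 probes of Ifih1 differed in sign. For Irf7 the interval ran from -3.71 to 2.36. With the replicate number as a block, which is also the slide in CLPs, again 0 members were called and 0% of all genes, with 8 members higher and 1 lower at an unadjusted p under 0.05, against 4.59% and 4.41% of all genes. Under quantile normalization 24 of 37 lay above 0.

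Genes above the response in the pathway were described from lists of ligands and receptors, the JAK-STAT signal and its brakes, interferon regulatory factors and nucleic acid sensing. Among ligands, Ifng, which encodes interferon gamma, read 1.17, 1.09 and 0.71 in WT Fo B cells and 5.57, 5.24 and 5.18 in Bach2KO cells. The groups were far apart, and the rise was 4.34 ± 0.30 (limma adjusted p = 0.000244). In MPPs Ifng read -7.42 to -6.63 and was above background on 2 of 3 control and 1 of 3 Bach2-vector arrays. Ifnb1, encoding interferon beta, was above background on no Fo B and no B220+ array, on 1 array each of the WT CLPs, DD CLPs, control-vector and Bach2-vector MPPs.

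The type I receptor genes passed in no comparison. Ifnar1 read 2.31, 1.30 and 1.27 with the control vector and 1.44, 0.36 and 1.07 with added Bach2, which overlap, and 2.76, 2.52 and 2.62 in WT against 2.77, 2.10 and 2.39 in Bach2KO Fo B cells. Ifnar2 read 3.89, 4.26 and 4.43 and then 3.52, 3.75 and 4.08 in the vector groups, and 2.52, 1.71 and 1.73 against 2.59, 1.56 and 1.88 in Fo B cells. Neither gene separated the groups in these 2 comparisons. Of 10 ligands and receptors tested between vectors 0 passed, and of 9 tested in Fo B cells Ifng alone passed. In B220+ cells 1 of 10 fell against the control vector, Il10rb, which encodes a receptor chain used by interferon lambda (-2.35 ± 0.41, adjusted p = 0.0066), and 0 of 10 passed against Bach2-vector MPPs.

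Of the 12 genes of the JAK-STAT list 0 passed between vectors, where Jak2 had the smallest p (0.93 ± 0.29, adjusted p = 0.237), and 0 in Bach2KO cells, where Cish, a feedback inhibitor, had 1.42 ± 0.32 (adjusted p = 0.0619). In B220+ cells Cish and Usp15 fell against the control vector, and Cish, Socs1 and Usp15 fell against Bach2-vector MPPs.

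Of 9 genes on the list of interferon regulatory factors outside the members, which holds the Irf2-binding proteins Irf2bp1 and Irf2bp2 too, Irf4, known for its role in B and dendritic cells, rose with the Bach2 vector (2.90 ± 0.44, adjusted p = 0.0143) and was the only one to pass there. In B220+ cells Irf8 (1.76 ± 0.29), Irf2 (2.03 ± 0.36) and Irf4 (1.59 ± 0.44) rose over the control vector. Irf8, a factor of dendritic and B-cell development, read 3.85, 3.80 and 4.01 with the control vector and 5.61, 6.06 and 5.29 in B220+ cells, without overlap, and it also rose against Bach2-vector MPPs (1.37 ± 0.29, adjusted p = 0.0278). Irf1, a factor induced by interferon gamma, read 4.53, 4.59 and 4.66 with the control vector and 5.01, 5.01 and 5.60 with added Bach2, without overlap (0.62 ± 0.27, adjusted p = 0.568). In Fo B cells Irf1 read 3.64, 3.34 and 3.32 in WT and 4.30, 3.44 and 4.40 in Bach2KO cells, which overlap, and 0 of the 9 genes passed.

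**Figure D5:**
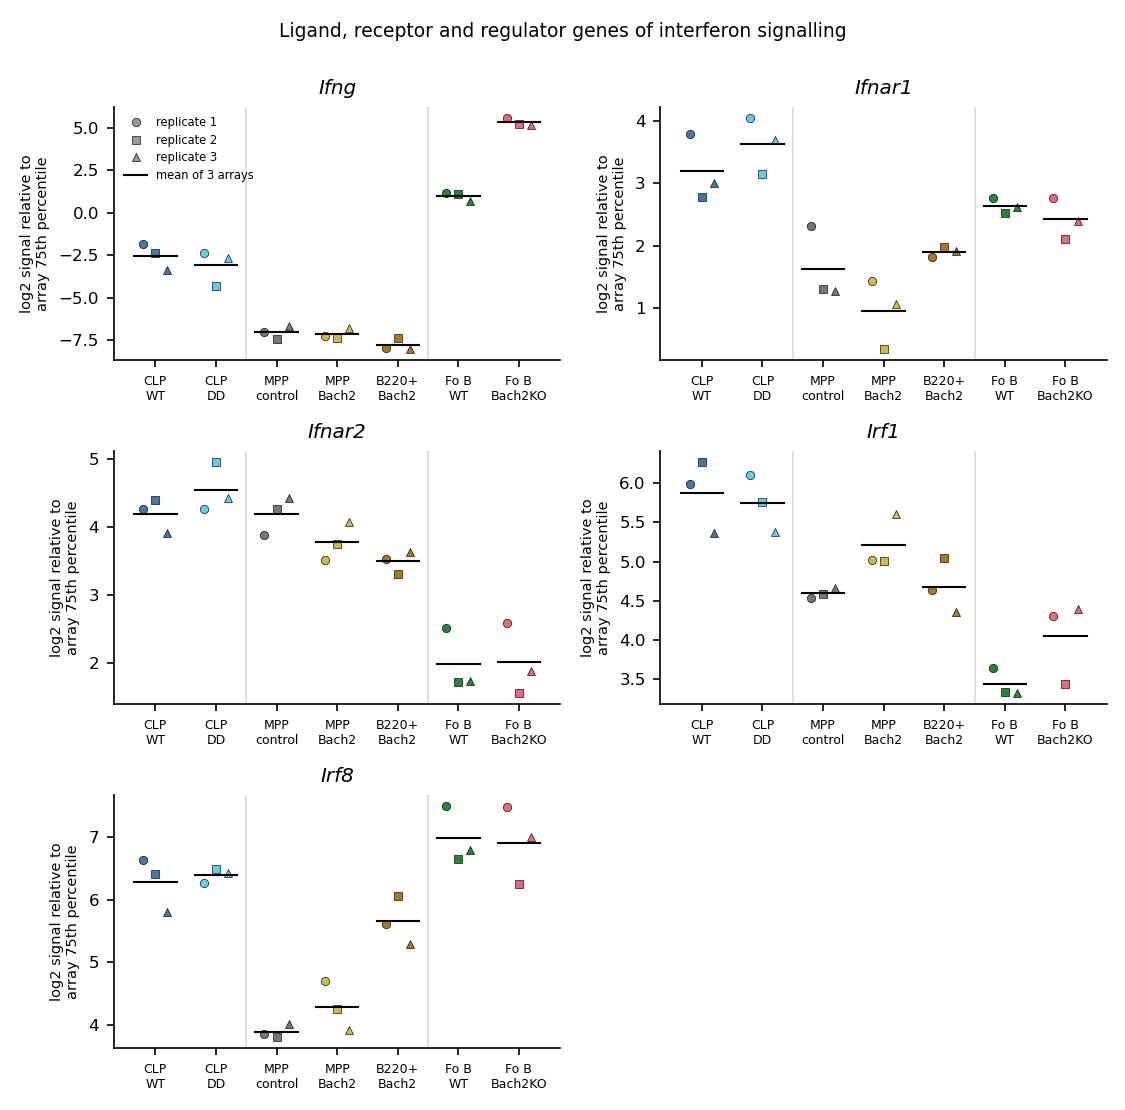
Levels of 5 genes of interferon signalling, in log2 units above the 75th percentile of the array, with 1 point per array and a line at the mean of 3 arrays. Ifng lies at 5.18 to 5.57 on the Bach2KO Fo B arrays, Ifnar1 and Ifnar2 overlap between WT and Bach2KO cells, and Irf8 is higher in B220+ cells than in control-vector MPPs.

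Of 21 genes of nucleic acid sensing and interferon induction tested between vectors 0 passed, with Sting1 at 0.84 ± 0.22 (adjusted p = 0.135), and of 20 tested in Fo B cells 0 passed. In B220+ cells 1 of 21 rose over the control vector, Trim56, and 6 fell, Irak4, Ikbke, Tlr7, Traf3, Myd88 and Tirap. Of 13 other class I antigen processing genes, Nlrc5, their transcription activator, fell with the Bach2 vector (-1.33 ± 0.27, adjusted p = 0.0473) and rose in B220+ cells against Bach2-vector MPPs (2.19 ± 0.27, adjusted p = 0.00233). The class I processing members Psmb8, Psmb9 and Tap1 passed in no comparison. Against the control vector Tapbp rose and Pdia3 fell in B220+ cells, and of 6 standard proteasome genes Psmd1 fell.

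In the fits without a block, 16 of the 37 measured genes were called in at least 1 comparison and 21 in none. Of the 17340 genes tested in any comparison, 14.6% were called in at least 1. The members called in none were Usp18, Herc6, Trim25, the 3 Ifit genes, Oas1a, Oas2, Oas3, Rigi, Eif2ak2, Adar, Parp14, Dtx3l, Trim30a, Psmb8, Psmb9, Tap1, Ifi44, Ifi35 and Rtp4. With the replicate number as a block, Usp18, Ifit1, Ifit3, Oas1a, Oas3 and Rtp4 were called higher in Bach2KO cells and Trim25 lower. Ifih1 was called in 3 comparisons. For 12 genes with more than 1 probe, the other probes gave the same sign as the one used in 11 of 11 measured cases between vectors and 6 of 8 in Fo B cells. It was 10 of 12 in CLPs, and in B220+ cells 8 of 10 against the control vector and 10 of 11 against Bach2-vector MPPs. Oas1a, Ifit3 and Trim30a have close relatives in the mouse genome, and signal from these was not tested.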

How the data were processed

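The data were single-colour Agilent arrays of 62976 spots. Per the file headers, Feature Extraction 10.7.3.1 wrote the deposited spot intensity values, background-corrected, and the submitters' processing notes give the version as 9.1. The series-wide table repeated these intensity values. Here log2 was taken and the 75th percentile over the non-control spots of each array subtracted; the deposited files held no such log2 values. Spots marked as outliers were removed before the spots of each probe were averaged. Probes were named by RefSeq accession (26413 of 55681), and each gene was represented by its brightest probe. A gene had to be well above background on 3 or more arrays of its experiment and was tested with limma 3.58.1 in R 4.3.3 (data.table, version 1.17.8), with Benjamini-Hochberg adjustment over all genes tested and a threshold of 0.05. The 9 MPP arrays shared 1 estimate of spread. Files were read and figures drawn in Python 3.11.15 with matplotlib 3.10.9, numpy 2.4.6 and pandas 2.3.3.

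Per the file headers the array annotation is of mm9; sequences and coordinates are of GRCm38.p6 and come from the RefSeq tables. The number of arrays, 3 a group, limits the precision. The fit was tested on simulated data. A few genes of the pathway and marker lists are not reported here, though counts and sums over those lists include them. The members and all lists were chosen with earlier results of these data known. Values on every array are given for members that passed, for the 3 smallest p of a comparison and for 4 pathway genes fixed by name; other genes given by array were added after their values were seen. Same-numbered arrays deviated together in CLPs (correlations 0.43, 0.39 and 0.22), between vectors (0.65, 0.41 and 0.30) and in Fo B cells (0.86, 0.72 and 0.54), so the numbers were taken to pair them. In Fo B cells and between vectors replicates 2 and 3 share a slide. Across these 2 numbers the correlations were also above 0, at 0.31 and 0.22 between vectors and 0.50 and 0.23 in Fo B cells. Pairing by number and sharing of a slide can thus not be fully told apart. Alternatives were quantile, median and normexp processing, the series-wide table, outlier spots kept, the mean of all probes and no filter. Others were different spread estimates, a slide or replicate block and leaving out each array. Normexp used the median spot and background signals, with an offset of 50, since no mean spot signal was in the files.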

Additional observations from a re-analysis of the deposited data

How the results depend on the processing

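Over the members named as called, 421 values under alternatives were computed, of which 351 stayed past the threshold, 70 did not and 0 changed sign. The tally holds runs on the series-wide table, which repeats the intensities used and could not differ. It also holds the mean of all probes, which is the same value for the 25 measured members with 1 probe. Cmpk2 and Zbp1 between vectors, Cmpk2, Dhx58, Ifitm3 and Samd9l in B220+ cells against the control vector, Ifitm3 against Bach2-vector MPPs and Oasl1 in Bach2KO cells were called under every alternative run. Between vectors 5 members were called, and 3 under median scaling, 8 under normexp and 3 with no filter. In Bach2KO cells 7 were called, and 2 under median scaling and 4 under normexp, where Rsad2 read 0.75 with an adjusted p of 0.661. In B220+ cells against Bach2-vector MPPs 2 were called, and 5 under normexp, 4 with a variance trend and 1 with only the 2 groups in the fit. Shares of all genes called were not computed for these alternatives, apart from median scaling in Bach2KO cells. The median member difference in CLPs was 0.18 under quantile normalization, and in B220+ cells against the control vector it was 0.96 under median scaling and 0.93 with the slide as a block.

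Leaving out 1 array at a time gave 0 calls in CLPs, 2 to 3 between vectors, 5 to 8 in B220+ cells against the control vector, 1 to 6 against Bach2-vector MPPs and 5 to 8 in Bach2KO cells. Shares of all genes called were not computed for these runs. The median member differences ranged from 0.22 to 0.37, 0.77 to 1.17, 0.39 to 0.96, -0.65 to -0.24 and 0.22 to 0.46.

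With the replicate number as a block, 15 members were called in Bach2KO cells, 7 between vectors and 15 there with only the 6 arrays of the pair. The B220+ arrays share only numbers with the others (correlations from -0.06 to 0.12). Against the control vector the block called 11 members higher and 1 lower, or 4 and 1 with only 6 arrays. Against Bach2-vector MPPs it called 1 higher and 5 lower, or 0 and 1 with only 6 arrays. Shares of all genes called were not computed for these B220+ fits, so the counts are not a result about the members. The 6-array blocks were added after seeing the data. The causes of these changes were not tested. Signal over background limits Ifit1, Ifit3, Irf7, Ifi44, Rsad2, Oas2, Oas3 and Cmpk2 in Fo B cells.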

Other observations

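The interferon response genes were also described by how they varied within groups. Over the 21 arrays, each gene's deviation from its group mean was correlated with the mean deviation of the other members. Pearson r was highest for Rtp4 (0.81), Dhx58 (0.74), Irf9 (0.74) and Samd9l (0.72), and lowest for Rigi (0.09) and Trim30a (0.02). Genes outside the members with the highest correlation to the members' mean deviation were Rpl21 (0.84), Cldn12 (0.82), Fkbp1a (0.81), BC005624 (0.79), Bbx (0.79), Wrnip1 (0.79), Arf2 (0.79), Tmem150a (0.78), Ift43 (0.78) and Max (0.77). None of these 10 is on a list of the interferon pathway used here, and the median over 12904 genes was 0.18. The arrays share slides and scaling, and these values are a description with no test.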
